A study of Mus musculus with 77 samples.

Results

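The imprinted gene clusters are 11 chromosomal intervals that hold genes expressed mainly from the maternal or mainly from the paternal copy. They were taken as every 80-kb bin that overlaps a preset interval in genome build mm9, without use of any measured value, and this gave 118 of 32973 bins. On chromosome 7 they run from H19 to Kcnq1 (chr7:149600001-151040000, 18 bins), from Ube3a to Ndn (chr7:66400001-69840000, 43 bins) and over Peg3 (chr7:6160001-6800000, 8 bins). The others are Dlk1-Dio3 (chr12:110560001-111600000, 13 bins), Igf2r (chr17:12800001-13360000, 7 bins), Gnas (chr2:173840001-174320000, 6 bins), Peg10 (chr6:4560001-5120000, 7 bins) and Mest (chr6:30560001-30800000, 3 bins). Grb10 (chr11:11680001-12160000, 6 bins), Plagl1 (chr10:12640001-12960000, 4 bins) and Rasgrf1 (chr9:89680001-89920000, 3 bins) complete the set.

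Single blastomeres were taken from mouse embryos produced by nuclear transfer (SCNT). There a somatic nucleus replaces that of the oocyte, so both parental copies of a cluster came from a donor nucleus. All embryos were of strain BDF1, were cultured in vitro in CZB medium and were SCNT embryos, so no fertilised embryo was compared, and the labels used here do not name the donor cell type. Single-cell Repli-seq reads from the DNA copy number of each bin whether a cell had already replicated it, and each bin has a single state per cell, which does not separate the maternal from the paternal copy. The 4-cell group of the series has 28 cells (14 embryos) and the 8-cell group 49 cells (12 embryos).

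Cells in mid-S phase were used, those with 30 to 70% of called autosomal bins replicated, which left 18 4-cell cells (9 embryos) and 28 8-cell cells (10 embryos). The embryo was the replicate, with 1 to 4 and 1 to 7 mid-S cells per embryo, and p-values measure the spread between embryos. Fits over both stages pooled the spread of both and moderated it across regions. A p-value of a stage therefore does not rest on the SD printed beside it alone. Called autosomal bins numbered 27915 to 29725 in 4-cell and 28701 to 29757 in 8-cell cells, and the read depth of a cell is unknown. Of the 118 cluster bins, 117 were called in at least 8 mid-S cells and 1, between Ube3a and Ndn, was called in none. The median replicated percent of the autosomes was 57.3 in the 4-cell and 49.5 in the 8-cell cells. In the authors' annotation an earlier batch gave 10 of the 4-cell cells (5 embryos), and a later batch gave the other 8 (4 embryos) and all 28 8-cell cells, so batch and stage are confounded in part. At the 4-cell stage the embryo means of the autosomal replicated percent were 38.2 to 54.9 in the earlier batch and 56.5 to 68.5 in the later batch, without overlap. Some cells held runs of a single state of at least 30 Mb (long blocks): all 6 cells of 3 later-batch 4-cell embryos, and 11 cells of 4 8-cell embryos. Results whose call or direction these cells or batches change are given with and without them, beside the result or among the processing alternatives.

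In genomic imprinting, DNA methylation set in one parent's germ line at a control region keeps 1 copy of nearby genes silent in the offspring, and whole clusters can follow a single such region. Genome parts replicate in a set order during S phase, open and gene-rich regions mostly early and closed, gene-poor regions mostly late. Imprinted domains are known from other cell types for parental copies that replicate asynchronously.

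Igf2r was the cluster that every mid-S cell had mostly replicated and the Ube3a to Ndn interval the latest. Plagl1 and Grb10 had the largest fitted rises between the stages, though neither passed (limma adjusted p = 0.295 and 0.285). The sequences just before the starts of Igf2r, Ndn, Plagl1 and Grb10 are therefore shown. Each is the 250 bases upstream of a RefSeq transcript start in build GRCm38.p6, read 5′ to 3′ on the gene's strand, with each CG dinucleotide (the site of DNA methylation) in capitals. The coordinates of this build cannot be set against the mm9 bins. The Grb10 entry is the first of its starts in the table.
Igf2r (chr17:12769707-12769956, minus strand): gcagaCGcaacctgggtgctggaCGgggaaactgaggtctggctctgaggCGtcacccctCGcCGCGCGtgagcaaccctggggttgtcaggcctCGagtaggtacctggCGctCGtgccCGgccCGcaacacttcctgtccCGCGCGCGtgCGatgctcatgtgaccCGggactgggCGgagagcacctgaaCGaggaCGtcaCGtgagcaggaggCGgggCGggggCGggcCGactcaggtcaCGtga
Ndn (chr7:62348027-62348276, plus strand): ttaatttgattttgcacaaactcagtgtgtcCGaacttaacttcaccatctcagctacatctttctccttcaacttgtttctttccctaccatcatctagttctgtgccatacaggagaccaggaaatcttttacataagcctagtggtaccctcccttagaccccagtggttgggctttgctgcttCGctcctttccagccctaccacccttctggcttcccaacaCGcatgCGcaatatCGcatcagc
Plagl1 (chr10:13090582-13090831, plus strand): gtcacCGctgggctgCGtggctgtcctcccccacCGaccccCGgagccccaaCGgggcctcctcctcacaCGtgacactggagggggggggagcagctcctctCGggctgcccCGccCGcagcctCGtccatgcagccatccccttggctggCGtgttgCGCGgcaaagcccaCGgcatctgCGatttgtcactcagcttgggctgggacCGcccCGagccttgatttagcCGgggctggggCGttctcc
Grb10 (chr11:12037421-12037670, minus strand): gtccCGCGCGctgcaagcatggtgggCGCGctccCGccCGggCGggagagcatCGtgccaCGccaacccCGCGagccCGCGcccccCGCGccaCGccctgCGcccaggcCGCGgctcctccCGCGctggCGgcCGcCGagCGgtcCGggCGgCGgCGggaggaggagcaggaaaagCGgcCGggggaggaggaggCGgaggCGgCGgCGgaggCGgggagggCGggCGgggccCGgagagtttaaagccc

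The motif searched was CG, which reads the same on both strands. The Grb10 sequence shown held 40 CGs, a count that 1.31% of the 32851 RefSeq promoters in the table reach, and the other Grb10 start in the table held 8 (43%). Igf2r held 27 (reached by 8.56% of promoters), Plagl1 held 19 (19.7%) and Ndn held 5 (55.6%), against a median of 6. Counts differed between genes of the same region. In the Ube3a to Ndn interval Ube3a held 24 and the Snrpn starts held 2 to 4. Airn, near Igf2r on chromosome 17, held 2. A link between CG count and replication was not tested. A bin of 80 kb is far longer than these stretches, so the replication values do not resolve them. In RefSeq's gene order the 3 long clusters also differ in content. Between H19 and Kcnq1 lie 20 annotated genes, 8 of them protein coding, among them Igf2 and Ins2 (growth factor and insulin), Th, Ascl2 and Cd81, and the long noncoding RNA Kcnq1ot1. Between Ube3a and Ndn lie 246 entries, of which 206 are small nucleolar RNAs and 3 are protein coding, with Snrpn, Snurf, Ipw and Snhg14 among them. Between Dlk1 and Dio3 lie 101 entries, 61 of them microRNAs, with the noncoding RNAs Meg3, Rian and Mirg and the protein-coding Rtl1.

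The first comparison asked where each cluster lay in the replication order of its own cells. The level of a cluster was its replicated percent less that of all autosomes in the same cell, in percentage points, averaged per embryo, and positive levels mean earlier replication. At the 4-cell stage 6 of 11 clusters were earlier and 1 was later than the autosomes (limma, Benjamini-Hochberg adjusted p under 0.05 over 2392 regions), against 38% and 34.7% of all regions. At the 8-cell stage 6 were earlier and 2 later, against 36.9% and 38.9% of all regions. Each of these counts lies within 3 clusters of what the background share gives for 11 regions. The median level was 20.2 points over the clusters and 1.51 over all regions at the 4-cell stage, and 24 against -0.567 at the 8-cell stage. Igf2r, Peg10, Peg3 and Mest were earlier at both stages, and the Ube3a to Ndn interval was later at both. Without cells that hold long blocks, 6 clusters were earlier and 2 later at each stage.

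**Figure D1:**
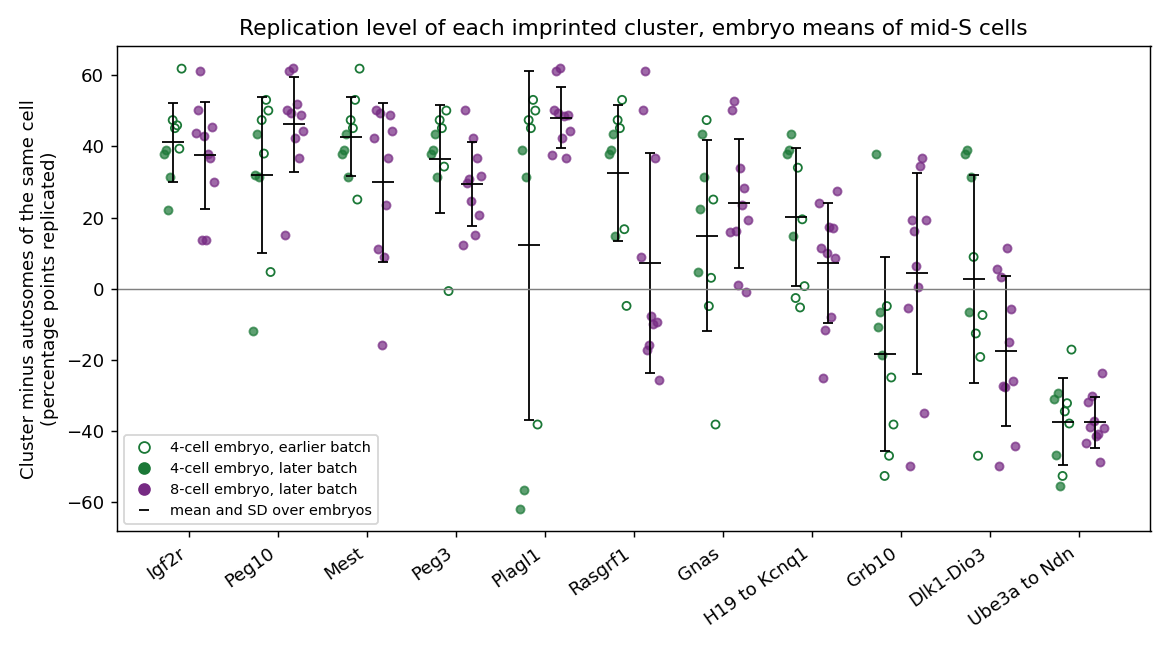
Each point is an embryo, with the cluster's replicated percent minus that of the autosomes of the same cells on the y axis (percentage points), and bars give the mean and SD over embryos. Igf2r lies above 0 in all 19 embryos and the Ube3a to Ndn interval below 0 in all 19, and the Plagl1 embryos of the 4-cell stage fall into 3 low and 6 high ones.

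Among the clusters named for paternally expressed genes, Peg10, a gene derived from a retrotransposon and needed in the placenta, had a replicated percent of 42.9 (lowest), 100 (median) and 100 (highest) over the 9 4-cell embryos. Over the 8-cell embryos the lowest was 63.3, the median 100 and the highest 100. Peg10 was fully replicated in 5 of 9 and 8 of 10 embryos, and the ranges overlapped. Its level was 32 ± 22 points (SD, n = 9; limma adjusted p = 4.1e-05) and 46.2 ± 13.4 points (n = 10; adjusted p = 9.08e-08). The 4-cell Peg10 call was kept in 11 of 12 alternative settings and lost with cells of 40 to 60% replicated (23.6 points, limma adjusted p = 0.0621).

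Peg3, which encodes a zinc finger protein, ranged from 37.5% through a median of 100% to 100% at the 4-cell stage. In 8-cell embryos it ranged from 57.5% through 76.6% to 100%. A single 4-cell embryo lay low, while 3 of the 8-cell embryos were fully replicated and the other 7 lay below 90%. The level was 36.5 ± 15.2 points (n = 9; limma adjusted p = 6.01e-07) and 29.4 ± 11.8 points (n = 10; adjusted p = 4.51e-06).

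Mest, which encodes a hydrolase-like protein of mesoderm, ranged from 75% through 100% to 100% in 4-cell embryos. In 8-cell embryos it ranged from 22.2% through 95.2% to 100%. All but 1 of the 4-cell embryos were fully replicated, while 5 of the 8-cell embryos were not. The level was 42.7 ± 11 points (n = 9; limma adjusted p = 8.34e-07) and 29.9 ± 22.3 points (n = 10; adjusted p = 3.88e-05). Mest is covered by 3 bins, so a cell takes few different values there.

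Plagl1, which encodes a zinc finger transcription factor, was all or none at the 4-cell stage. Its 4 bins were all replicated in 13 cells and all unreplicated in 5, with 0 mixed cells. Mest was also all or none at that stage, with 17 cells fully replicated, 1 unreplicated and 0 mixed. Both clusters span few bins, yet Rasgrf1, with 3 bins, had 4 mixed cells of 18 at that stage. The 5 cells came from embryos 1, 6 and 14, where every mid-S cell was unreplicated, and 2 of the 5 lay in a long block. Of 28 8-cell cells, 26 were fully replicated, 1 was mixed and 1, which lay in a long block, was unreplicated. The replicated percent of the 4-cell embryos was 0 (lowest), 100 (median) and 100 (highest), and that of the 8-cell embryos was 85.7, 100 and 100. The 4-cell range therefore encloses the 8-cell range, since 3 embryos stood at the bottom and 6 at the top. Its level was 12.2 ± 49.1 points at the 4-cell stage (n = 9; limma adjusted p = 0.275) and 48.1 ± 8.58 points at the 8-cell stage (n = 10; adjusted p = 7.48e-05). The pooled spread gave standard errors of 10.0 and 9.52 points, so the 4-cell p-values borrow from the tighter 8-cell embryos. Without the cells that hold long blocks the 4-cell level was 31.5 points (limma adjusted p = 0.00278), and without embryo 1 it was 21.4 points (adjusted p = 0.042). Restricted to the later batch, the 4-cell Plagl1 level turned to -12 points (limma adjusted p = 0.45), and against its own chromosome it was 18.4 points (adjusted p = 0.0428).

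Rasgrf1, which encodes a guanine nucleotide exchange factor for Ras, ranged from 33.3% through 100% to 100% in 4-cell embryos. In 8-cell embryos it ranged from 22.2% through 45.8% to 100%. The 8-cell embryos split into 3 at 100% and 7 at 57.1% or below. Its level was 32.5 ± 19.2 points at the 4-cell stage (n = 9; limma adjusted p = 0.000804) and 7.12 ± 30.9 points at the 8-cell stage (n = 10; adjusted p = 0.396).

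Of the clusters named for genes mainly expressed from the maternal copy, Igf2r, the receptor that removes the growth factor IGF2, was the most steadily replicated. It ranged from 78.6% through 100% to 100% in 4-cell embryos and from 64.3% through 88.8% to 100% in 8-cell embryos. All 46 mid-S cells had over 50% of its called bins replicated. The level was 41.1 ± 11.1 points (n = 9; limma adjusted p = 9.61e-08) and 37.5 ± 15 points (n = 10; adjusted p = 1.19e-07), above 0 in 9 of 9 and 10 of 10 embryos.

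Grb10, which encodes an adaptor that damps insulin and growth factor signalling, ranged from 0% through 50% to 100% in 4-cell embryos. It ranged from 0% through 58.3% to 100% in 8-cell embryos, so the stages overlapped over the whole scale. The level was -18.4 ± 27.3 points at the 4-cell stage (n = 9; limma adjusted p = 0.0512), below 0 in 8 of 9 embryos. It was 4.28 ± 28.1 points at the 8-cell stage (n = 10; limma adjusted p = 0.634), above 0 in 7 of 10. Without cells that hold long blocks the 4-cell Grb10 level was -31 points (limma adjusted p = 0.00356). Restricted to the later batch, it turned to 0.502 points (limma adjusted p = 0.972), and against its own chromosome it was -28.4 points (adjusted p = 0.00322). Leaving out 4-cell embryo 1 gave -25.4 points (limma adjusted p = 0.00654). Leaving out 8-cell embryo 2, 9 or 11, which share the estimate of spread, also put it below the threshold, at an adjusted p of 0.0325, 0.049 and 0.0449.

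The other 4 clusters hold genes of both parental directions, and among these the Ube3a to Ndn interval, the domain of the Prader-Willi and Angelman syndromes, replicated last. Its replicated percent was 0 (lowest), 14.8 (median) and 31 (highest) in 4-cell embryos and 0, 15.5 and 27.4 in 8-cell embryos. Every embryo of either stage lay below the lowest Igf2r embryo. The level was -37.4 ± 12.2 points (n = 9; limma adjusted p = 4.34e-08) and -37.5 ± 7.20 points (n = 10; adjusted p = 1.27e-08), below 0 in every embryo.

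The H19 to Kcnq1 interval, with the noncoding RNA H19, Igf2 and the potassium channel gene Kcnq1, ranged from 38.9% through 83.3% to 100% in 4-cell embryos. It ranged from 13.9% through 60.4% to 83.3% in 8-cell embryos. The ranges overlapped, and 3 of the 4-cell embryos but none of the 8-cell embryos were fully replicated. The level was 20.2 ± 19.3 points at the 4-cell stage (n = 9; limma adjusted p = 0.00412) and 7.14 ± 16.8 points at the 8-cell stage (n = 10; adjusted p = 0.254). Without cells that hold long blocks the 4-cell level was 10.2 points (limma adjusted p = 0.138). By batch, the 4-cell replicated percent of this interval was 57.8 in the earlier and 95.8 in the later batch.

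Dlk1-Dio3, with the Delta-like gene Dlk1 and the thyroid hormone deiodinase gene Dio3, ranged from 0% through 50% to 100% in 4-cell embryos. It ranged from 0% through 26.6% to 69.2% in 8-cell embryos. The 4-cell embryos lay higher, and the ranges overlapped. The level was 2.76 ± 29.2 points at the 4-cell stage (n = 9; limma adjusted p = 0.75) and -17.5 ± 21.1 points at the 8-cell stage (n = 10; adjusted p = 0.0327). The 8-cell call was lost when 8-cell embryo 2, 4, 5, 11 or 12 was left out, with levels of -14.0, -16.5, -16.4, -16.6 and -14.6 points. It was kept in 7 of 12 other settings, and lost with the interval widened by 1 bin on each side, on the arcsine scale, with embryos of at least 2 mid-S cells, against its own chromosome and without values inside long blocks (limma adjusted p = 0.0633 to 0.119). The 4-cell replicated percent was 33.1 in the earlier and 87.5 in the later batch, and in the later batch alone the 4-cell level was 25.5 points (limma adjusted p = 0.0394). With the cells that hold long blocks left out it turned to -7.62 points (limma adjusted p = 0.43).

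Gnas, which encodes the stimulatory G protein alpha subunit, ranged from 0% through 75% to 100% in 4-cell embryos. It ranged from 38.9% through 70.8% to 100% in 8-cell embryos, so the medians were close and the low end differed. The level was 14.9 ± 26.8 points (n = 9; limma adjusted p = 0.06) and 24 ± 18.1 points (n = 10; adjusted p = 0.00234). Without 4-cell embryo 10 or 14 the 4-cell Gnas level was 17.4 points (limma adjusted p = 0.0428) or 21.6 points (adjusted p = 0.00443). It passed in 5 of 12 other settings, among them the later batch (25.5 points, limma adjusted p = 0.0206) and cells of 40 to 60% replicated (35.5 points, adjusted p = 0.00177), and was 10.7 points without cells that hold long blocks (adjusted p = 0.274).

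Igf2r, which was among the earliest 3 clusters by level at each stage, and the latest cluster were also compared cell by cell. Over 46 mid-S cells, Igf2r was mostly replicated (over 50% of called bins) and the Ube3a to Ndn interval was not in 44, and both were in 2. Igf2r was mostly replicated in all 46, so the opposite order could not occur. The pair was also chosen from these values, so the counts are a description. Of 11 clusters, 2 to 10 were mostly replicated per cell at the 4-cell stage (median 8) and 3 to 10 at the 8-cell stage (median 7), and 0 cells had all 11. Among 7 cells of both stages below 30% replicated, Igf2r was mostly replicated in 5 of 7, Peg10 in 3 of 6 with enough called bins and Plagl1 in 2 of 7. Gnas and Rasgrf1 were mostly replicated in 1 of these cells each, and the other clusters in 0. Among 24 cells above 70%, Igf2r and Dlk1-Dio3 were mostly replicated in 24, Peg3 and H19 to Kcnq1 in 23, Mest and Peg10 in 22, and Grb10 in 20. Plagl1 was mostly replicated in 20 of 22 with enough called bins, Gnas in 19 of 23, and Rasgrf1 and the Ube3a to Ndn interval in 19 of 24 each, so the latest mid-S cluster shared the lowest count. The 5 exceptions of the Ube3a to Ndn interval were 8-cell cells, of 15, while all 9 4-cell cells had passed 50% there. Exceptions also lay in 8-cell cells only at Grb10 (4 of 15), H19 to Kcnq1 and Peg3 (1 of 15 each). The reverse held at Rasgrf1, with 4 of 9 4-cell and 1 of 15 8-cell cells, and at Gnas, with 3 of 8 and 1 of 15. Mest and Peg10 had 2 of 9 and 0 of 15 each, and Plagl1 had 2 of 9 and 0 of 13.

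**Figure D2:**
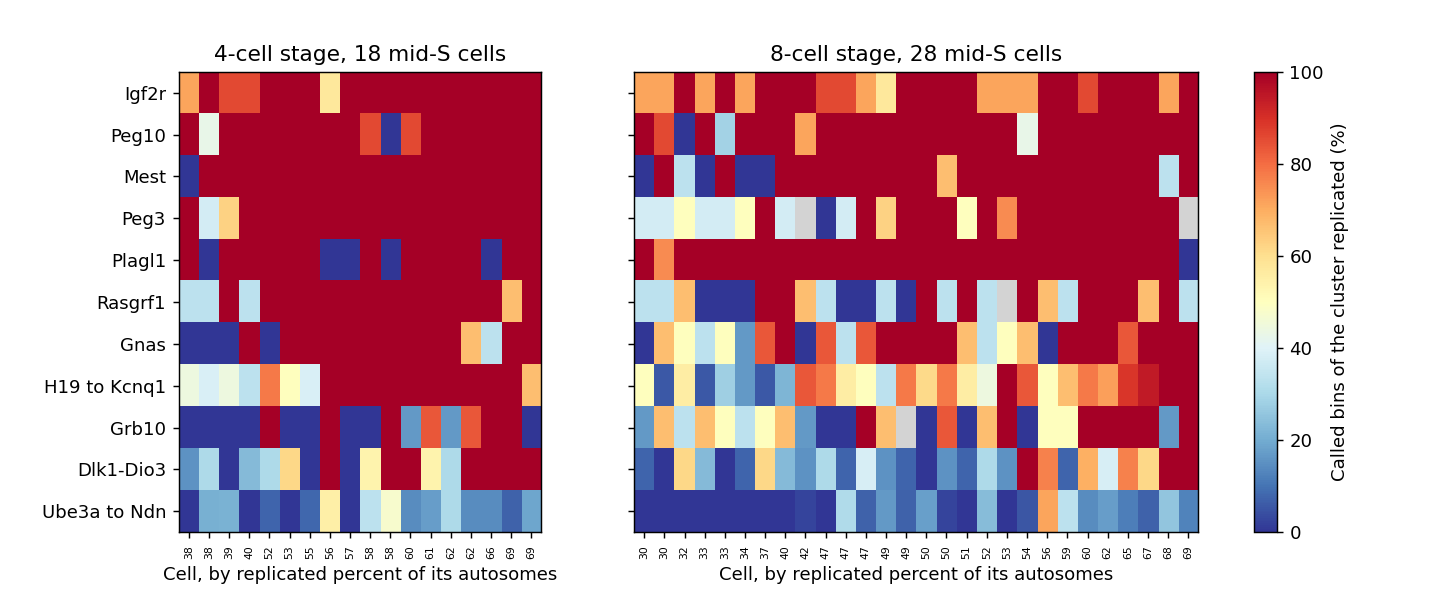
Each column is a mid-S cell, ordered by the replicated percent of its autosomes (x axis), and colour gives the percent of the cluster's called bins replicated, with grey where fewer than 50% were called. Igf2r is above 50% in all 46 cells, Plagl1 and Mest at the 4-cell stage are either 0 or 100, and the Ube3a to Ndn interval is above 50% in 2 cells.

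A cluster was partly replicated in 24.7% of 4-cell and 45.1% of 8-cell pairs of a cell and a cluster, against 41.7% and 52.1% for windows of 1 Mb. Clusters span 3 to 43 bins, so these shares are not at matched length. Adjacent bins of a cluster had different states in 4.40 (4-cell) and 7.36 (8-cell) of 100 pairs, against 4.98 and 6.68 over all autosomes. In mostly replicated or not, 2 cells of the same 4-cell embryo had the same state in 76.5% of cluster comparisons (12 pairs of cells) and 2 cells of different embryos in 70.6% (141 pairs). For 8-cell embryos the shares were 65.8% (38 pairs) and 67.6% (340 pairs). The cell pairs share embryos and cells and were not tested.

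The second comparison asked whether any cluster shifted between the stages. The replicated percent was fitted with stage and the embryo's autosomal percent as terms, and differences are 8-cell minus 4-cell. None of the 11 clusters passed (limma, Benjamini-Hochberg adjusted p under 0.05), against 0.46% of 2392 regions, that is 11 regions, 1 earlier and 10 later at the 8-cell stage. At an unadjusted p under 0.05, 2 clusters and 365 regions differed. Those were Plagl1 at 34 points (95% interval 1.59 to 66.4; unadjusted p = 0.0407, limma adjusted p = 0.295) and Grb10 at 27.5 points (2.06 to 53.0; unadjusted p = 0.0355, limma adjusted p = 0.285). Both fitted differences were rises toward earlier replication at the 8-cell stage. The lowest were Rasgrf1 at -24.2 points (95% interval -49.1 to 0.685; limma adjusted p = 0.328) and Dlk1-Dio3 at -14.2 points (-36.4 to 8.00; adjusted p = 0.535). Over the 13 alternatives the difference ranged from -66.5 (cells of 40 to 60% replicated) to -16.2 points at Rasgrf1 and from -38.3 (later batch alone) to -5.94 points at Dlk1-Dio3, and neither passed in any. The Ube3a to Ndn interval had -2.93 points (95% interval -13.2 to 7.39; limma adjusted p = 0.807) and Igf2r -8.23 points (-20.1 to 3.59; adjusted p = 0.49). The median difference was -3.84 points over the clusters and -0.605 over all regions, and the intervals leave room for shifts of over 10 points in at least one direction at each cluster.

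Between the other clusters the fitted differences were 13.6 points at Gnas (95% interval -7.23 to 34.3), 11.7 at Peg10 (-5.80 to 29.1), -11.7 at Mest (-29.5 to 6.16), -7.16 at H19 to Kcnq1 (-22.4 to 8.07) and -3.84 at Peg3 (-17.0 to 9.31). All 5 intervals include 0. Without cells that hold long blocks Plagl1 had 17.9 points (limma adjusted p = 0.487) and Grb10 38.5 points (adjusted p = 0.125). In the batch comparison within the 4-cell stage 0 of 2383 regions passed in limma with Benjamini-Hochberg adjustment (background 0%), with 262 regions and 1 cluster, Plagl1, at an unadjusted p under 0.05. The covariate of that fit, the autosomal percent, did not overlap between the batches. The fit could therefore hardly separate batch from position in S phase. Its Plagl1 estimate was -118 points (95% interval -199 to -36.2), beyond what a percent can change. Mean 4-cell replicated percents by batch without that covariate, earlier then later, were 80 and 50 at Plagl1, 15 and 62.5 at Grb10, and 55.0 and 87.5 at Gnas. These means also carry the difference in position in S phase. The fitted batch differences were 27.7 points at Grb10 and -10.6 at Gnas, the latter of opposite sign to the means. With the later batch alone the stage difference was 59.2 points at Plagl1, 4.12 at Grb10 and -1.67 at Gnas (limma adjusted p = 0.148, 0.937 and 0.961). Across the 11 clusters the levels of the 2 stages had a Spearman rho of 0.582, and across 2384 other windows 0.907, given as a description of regions measured in the same cells.

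**Figure D3:**
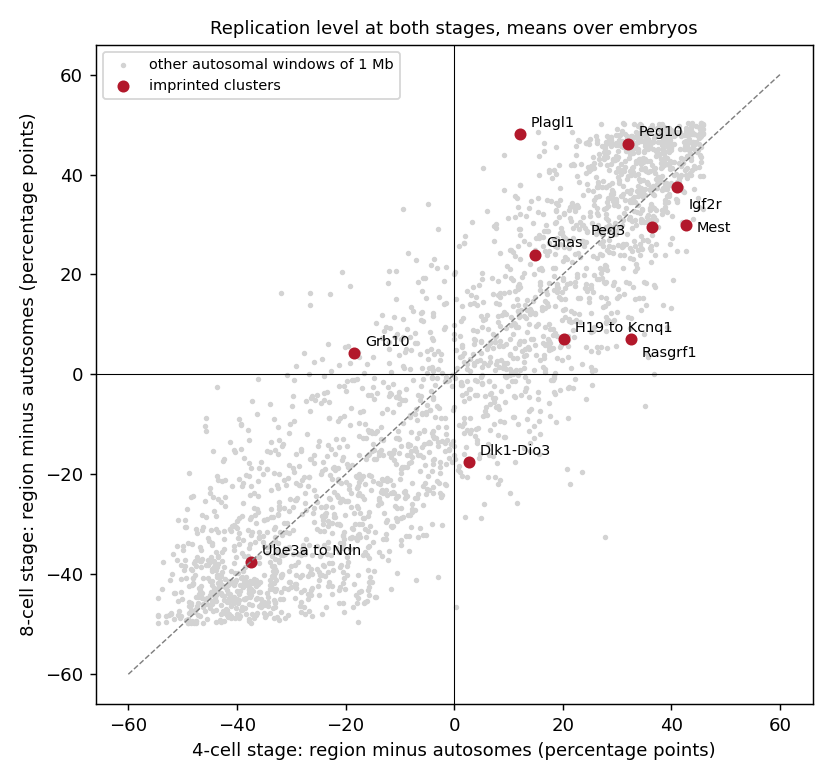
Each grey point is another autosomal window of 1 Mb and each red point a cluster, with its level (region minus autosomes, percentage points, mean over embryos) at the 4-cell stage on the x axis and at the 8-cell stage on the y axis. Igf2r (41.1 and 37.5) lies near the dashed line of equal levels, while Plagl1 (12.2 and 48.1) and Grb10 (-18.4 and 4.28) lie above it and Rasgrf1 (32.5 and 7.12) below it.

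The third comparison set each cluster against its own neighbourhood, the called bins within 1 Mb on each side in the same cell. The replicated percents of the 2 sides were averaged. At the 4-cell stage 3 clusters were more replicated than their flanks and 1 was less (limma, Benjamini-Hochberg adjusted p under 0.05), against 23.8% and 23.8% of 2326 regions. At the 8-cell stage 5 were more and 2 less replicated, against 31.5% and 30.6%. The 4 counts lie within 2 clusters of what the background shares give for 11 regions. The median contrast was 7.87 points over the clusters and 0.424 over all regions at the 4-cell stage, and 8.86 against 0.260 at the 8-cell stage. Peg10 stood above its flanks and Dlk1-Dio3 below them at both stages. In the later batch alone 0 clusters passed in limma at the 4-cell stage (1 at an unadjusted p under 0.05), and without cells that hold long blocks 4 passed in 4-cell and 6 in 8-cell embryos. In that batch some 4-cell embryos had cluster and flanks both at 100%, such as embryos 1, 6 and 7 at Peg3, where no contrast can show.

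Peg10 was more replicated than the mean of its flanks, which stood at 53.2% and 47.5% at the 4-cell and 8-cell stage. The sides were averaged, so whether both replicated later than Peg10 was not tested. Its contrast over 4-cell embryos was 0 (lowest), 37.5 (median) and 72.0 (highest), and over 8-cell embryos 21.6, 46.9 and 62.5. It was above 0 in 8 of 9 and in 10 of 10 embryos. The mean was 33.3 ± 21.9 points (n = 9; limma adjusted p = 4.89e-05) and 48.4 ± 12.3 points (n = 10; adjusted p = 6.97e-08). Restricted to the later batch, the 4-cell Peg10 contrast was 20.1 points (limma adjusted p = 0.0675).

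Dlk1-Dio3 was the converse, with flanks at 89.4% and 80.5%. Its contrast over 4-cell embryos was -70.8 (lowest), -38.5 (median) and 0 (highest), and over 8-cell embryos -80.1, -54.3 and 0. All 5 earlier-batch 4-cell embryos lay between -70.8 and -38.5, and all 4 later-batch ones were at 0, while 9 of the 10 8-cell embryos, all of the later batch, were below 0. In later-batch 4-cell embryos 1, 3 and 7 both Dlk1-Dio3 and its flanks were at 100%, so their order cannot be read there. Embryo 6 averaged a fully replicated and an unreplicated cell. The mean was -32.1 ± 31.8 points (n = 9; limma adjusted p = 0.00417) and -48.4 ± 26.6 points (n = 10; adjusted p = 2.22e-05). Of the 4 later-batch embryos, 3 hold long blocks. By cell the autosomal percents overlapped: earlier-batch cells at 58, 60.6 and 61.9% had 53.8, 53.8 and 30.8% of Dlk1-Dio3 replicated, and later-batch cells at 58.2, 59.7 and 62.1% had 100%. Later-batch embryo 6 had cells at 56.5 and 56.6% with 100% and 0% of Dlk1-Dio3 replicated, the latter in a long block. These later-batch cells all come from embryos with long blocks, so at this position in S phase batch and blocks cannot be told apart. Leaving out cells that hold long blocks gave a 4-cell contrast of -48.1 points (limma adjusted p = 0.00034), and cells of 40 to 60% replicated gave -23.7 points (adjusted p = 0.0848).

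At the 8-cell stage Plagl1 lay 40.6 ± 17.3 points above its flanks (n = 10; limma adjusted p = 1.44e-06), Grb10 31.8 ± 23.4 points (adjusted p = 4.76e-05) and Gnas 19.9 ± 18.6 points (adjusted p = 0.00293). These 3 were above their flanks in 10, 8 and 9 of the 10 embryos. At the 4-cell stage the same contrasts were 13.9 points at Plagl1 (limma adjusted p = 0.0572), 5.67 at Grb10 (adjusted p = 0.466) and 1.97 at Gnas (adjusted p = 0.808). The stage difference of the contrast did not pass at any cluster (background 3.7% of 2326 regions). It was 26.7 points at Plagl1 (95% interval 9.87 to 43.6; unadjusted p = 0.00329, limma adjusted p = 0.0689), 26.1 at Grb10 (8.71 to 43.5; unadjusted p = 0.005, adjusted p = 0.0814) and 17.9 at Gnas (1.5 to 34.3; unadjusted p = 0.0337, adjusted p = 0.184). The 4-cell Plagl1 contrast passed without 4-cell embryo 1, 6, 7 or 14 or without 8-cell embryo 3 or 9 (limma adjusted p = 0.0195 to 0.0485). It also passed without cells that hold long blocks (21.9 points, limma adjusted p = 0.0252), and turned to -1.56 points in the later batch (adjusted p = 0.943) and to -1.39 with flanks of 0.5 Mb (adjusted p = 0.849).

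H19 to Kcnq1 lay below its flanks at the 8-cell stage, at -23.6 ± 17.6 points (n = 10; limma adjusted p = 0.00157), with 9 of 10 embryos below 0. With flanks of 0.5 Mb the 8-cell value was -9.35 points (limma adjusted p = 0.242). At the 4-cell stage it was -9.80 ± 23.1 points (n = 9; limma adjusted p = 0.213). Peg3 lay above its flanks by 12 ± 11 points at the 8-cell stage (n = 10; limma adjusted p = 0.0216) and by 10.6 ± 16.0 points at the 4-cell stage (n = 9; adjusted p = 0.0626). The 8-cell Peg3 call was lost without 8-cell embryo 1 (10.4 points, limma adjusted p = 0.0595) or 3 (9.42 points, adjusted p = 0.0702), and the 4-cell value passed without 4-cell embryo 1 (12 points, adjusted p = 0.047). Without cells that hold long blocks the 8-cell Peg3 contrast was 12.3 points (limma adjusted p = 0.0613), and with flanks of 0.5 Mb it was 2.38 points (adjusted p = 0.703).

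Igf2r exceeded its flanks by 19 ± 21.2 points at the 4-cell stage (n = 9; limma adjusted p = 0.00474) and by 8.86 ± 9.51 points at the 8-cell stage (n = 10; adjusted p = 0.127). Restricted to the later batch, the 4-cell Igf2r contrast was -0.149 points, and with cells of 40 to 60% replicated it was 13.1 points (limma adjusted p = 0.0837). The 8-cell Igf2r contrast passed in 4 of 12 alternative settings (lowest limma adjusted p = 0.023), among them the later batch alone (adjusted p = 0.0263). Rasgrf1 exceeded its flanks by 19 ± 20.9 points at the 4-cell stage (n = 9; limma adjusted p = 0.0343) and by 7.88 ± 26 points at the 8-cell stage (n = 10; adjusted p = 0.324). The 4-cell Rasgrf1 call was lost without 4-cell embryo 3, 6, 7, 9, 10 or 11 (limma adjusted p = 0.0516 to 0.118), and without cells that hold long blocks (18.4 points, adjusted p = 0.107), as in the later batch alone (19.8 points, adjusted p = 0.224) and with flanks of 0.5 Mb (10.9 points, adjusted p = 0.248). Mest, at 7.87 and -6.39 points, and the Ube3a to Ndn interval, at -4.30 and -7.05 points, did not pass at either stage. The 4-cell Mest contrast passed in 1 of 12 alternative settings (limma adjusted p = 0.0312). With cells of 40 to 60% replicated the 8-cell Mest contrast turned to 11.3 points (limma adjusted p = 0.0193), and with flanks of 0.5 Mb it was -12.9 points (adjusted p = 0.0257). The Ube3a to Ndn interval thus lay in flanks that were themselves late, at 21.4% and 19.2% replicated.

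**Figure D4:**
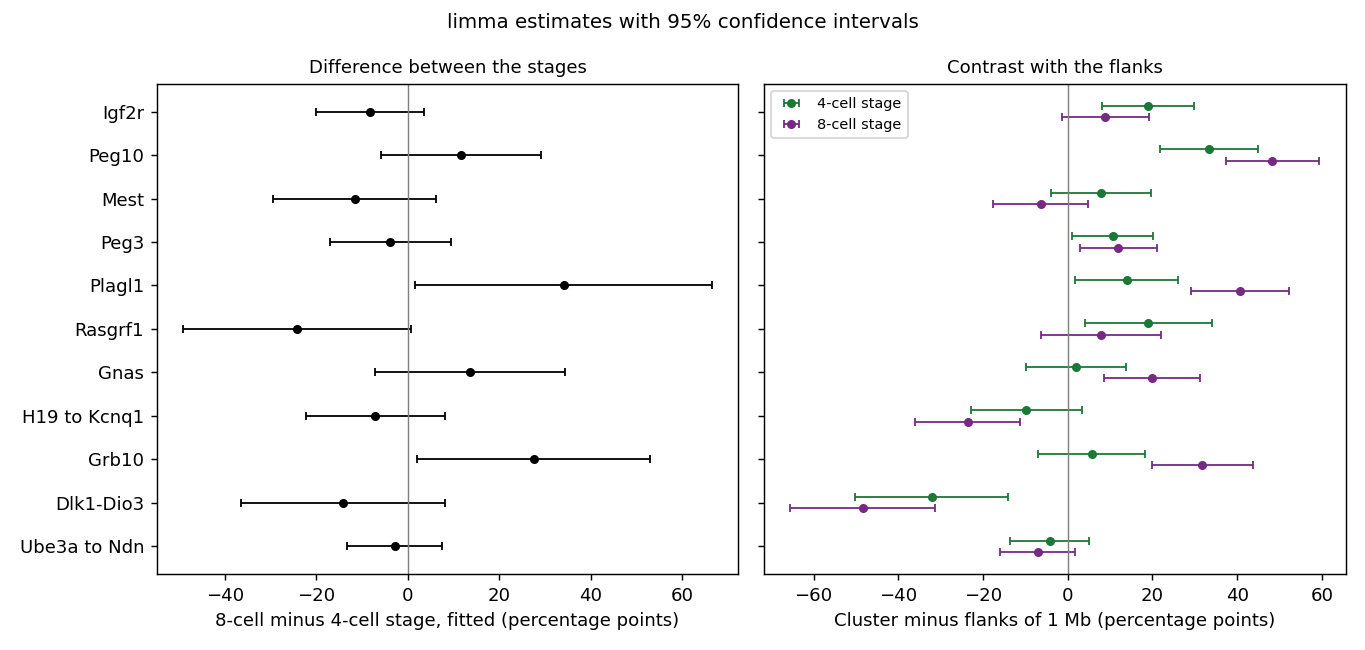
Points are limma estimates per cluster with 95% confidence intervals in percentage points, for the 8-cell minus 4-cell difference (left) and for the cluster minus its flanks at each stage (right), with a line at 0. On the right Peg10 (33.3 and 48.4) lies above 0 and Dlk1-Dio3 (-32.1 and -48.4) below 0 at both stages, and on the left 9 of 11 intervals include 0.

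Within the longer clusters the bins were not uniform. In H19 to Kcnq1 the first bin was replicated in 16 of 18 4-cell and 25 of 28 8-cell cells, and the next one in 13 of 18 and 15 of 28. The lowest bin over both stages (chr7:150000001-150080000) was replicated in 12 of 18 and in 4 of 28 cells. The last bin (chr7:150960001-151040000) was replicated in 18 of 18 and 25 of 28 cells. The 8-cell profile thus dipped between 2 early edges, and the 4-cell profile stayed at 55.6% or above throughout. No test was run on single bins.

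In Dlk1-Dio3 the lowest bin over both stages (chr12:110720001-110800000), tied with chr12:110960001-111040000, was replicated in 7 of 18 4-cell and 7 of 27 8-cell cells. In 8-cell cells alone the lowest was chr12:111040001-111120000, at 6 of 28. The share rose toward the end of the interval, to 15 of 18 and 24 of 28 cells in the last bin (chr12:111520001-111600000). Peg3 was level at 94.4% over its 8 bins in 4-cell cells. In 8-cell cells it stepped down from 25 of 26 cells in the third bin (chr7:6320001-6400000) to 16 of 26 in the fourth (chr7:6400001-6480000). In all 3 clusters the shares of the bins spanned a wider range at the 8-cell than at the 4-cell stage in these pooled cells. The shares are not adjusted for position in S phase, where the 4-cell cells were further on (median autosomal percent 57.3 against 49.5).

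In the Ube3a to Ndn interval the highest bin (chr7:67040001-67120000) was replicated in 9 of 18 and 13 of 27 cells, and the lowest (chr7:68240001-68320000) in 1 of 18 and 0 of 28. The bins that follow, up to chr7:68480001-68560000, tied with this lowest share over both stages. The late state therefore covered most of the interval, with a less late stretch near its start. Before the bin that was never called, fewer cells were called than elsewhere, down to 11 of 18 and 18 of 28. Igf2r had a bin (chr17:12960001-13040000) that was replicated in 18 of 18 and 28 of 28 cells. Grb10 had its highest bin (chr11:11760001-11840000) at 7 of 18 and 20 of 27 cells and its lowest (chr11:12000001-12080000) at 7 of 18 and 8 of 27. Gnas rose in 8-cell cells from 11 of 27 in its first bin to 25 of 28 in its last, and in 4-cell cells from 12 of 18 to 14 of 18. Rasgrf1 rose from 9 of 27 to 21 of 27 in 8-cell cells and from 14 of 18 to 18 of 18 in 4-cell cells.

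**Figure D5:**
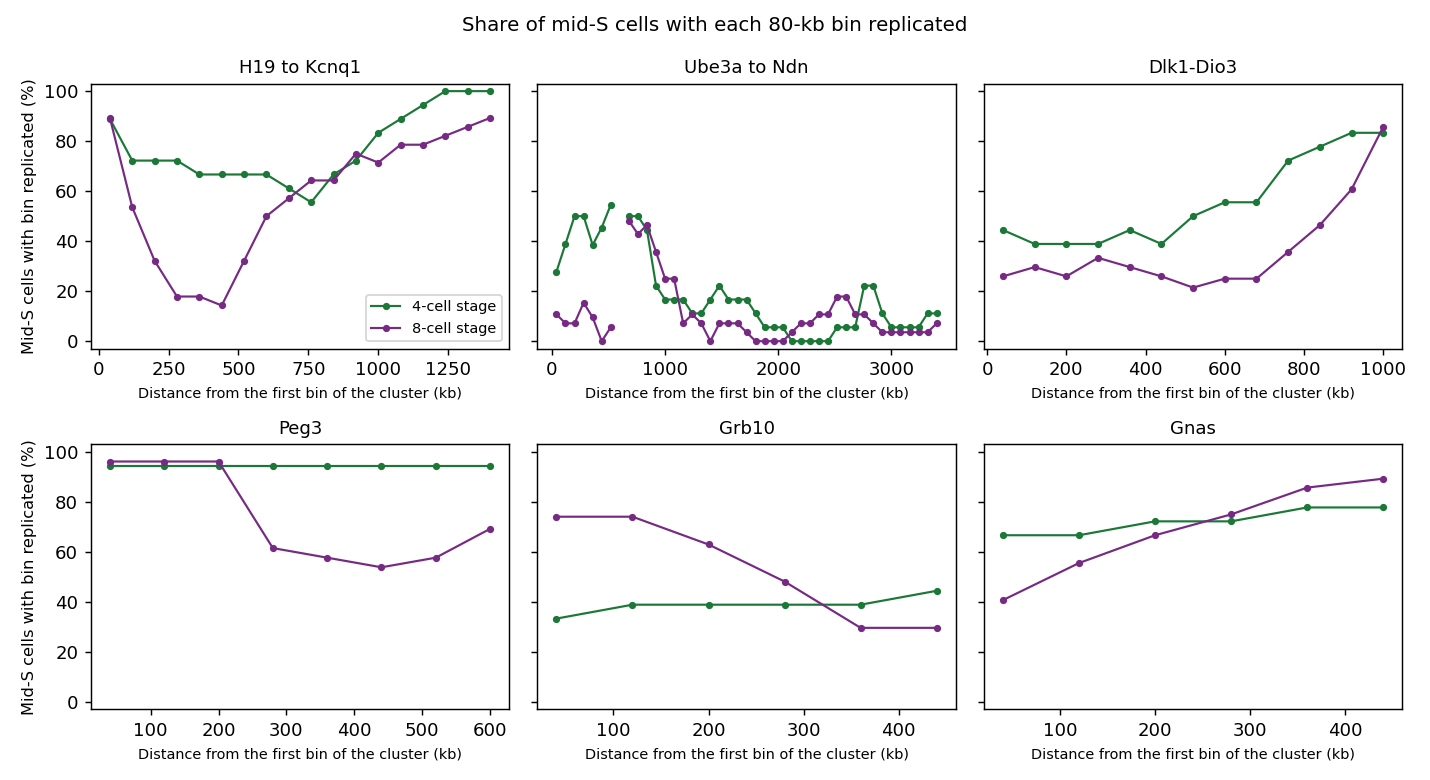
Each panel plots the percent of mid-S cells with an 80-kb bin replicated (y axis) against the distance from the first bin of the cluster in kb (x axis), for the 4-cell (green) and 8-cell (purple) stage. H19 to Kcnq1 falls to 14.3% in its lowest 8-cell bin, Dlk1-Dio3 rises to 83.3% and 85.7% at its end, and the gap in the Ube3a to Ndn panel is the bin that no mid-S cell had called.

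Counted by bin, 23.9% of the 117 called cluster bins were late at the 4-cell stage (replicated in at most 20% of cells) and 29.9% early (at least 80%), against 20% and 32.4% of autosomal bins. In 8-cell cells 33.3% were late and 22.2% early, against 33.5% and 31.2%. All 28 late bins of the 4-cell stage and 36 of the 39 of the 8-cell stage lay in the Ube3a to Ndn interval, and the other 3 lay in H19 to Kcnq1. Early bins at both stages were found in H19 to Kcnq1 (7 and 4), Peg3 (8 and 3), Dlk1-Dio3 (2 and 1), Igf2r (7 and 4), Peg10 (6 and 7) and Mest (3 and 1). Plagl1 had 0 and 4 early bins, Gnas 0 and 2, Rasgrf1 2 and 0, and Grb10 had neither class at either stage.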

How the data were processed

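Single blastomeres of SCNT embryos were isolated by micromanipulation, their genomes were amplified and libraries were sequenced, per the labels' protocols. The authors deposited 1 state per cell and 80-kb bin, a value of 1, -1 or 0 read here as replicated, not replicated and no call. Per the submitters' processing notes the build is mm9, and the sources used here do not name the aligner or the state caller. The deposited annotation gives a replication percent and a noise score per cell, per the file headers, and among called autosomal bins the share in state 1 equals that percent to within 4.98e-09. Columns that matched no sample numbered 0.

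A cluster's replicated percent was computed per cell where at least 50% of its bins were called, and averaged per embryo. The rest of the autosomes was cut into windows of 1 Mb with at least 6 bins, and all regions with values in at least 3 embryos per stage were fitted together in limma 3.58.1 (R 4.3.3, lmFit and eBayes), with Benjamini-Hochberg adjustment over all regions and a threshold of 0.05. The fits were the level against the autosomes and against flanks of 1 Mb (each stage against 0) and the stage difference with the embryo's autosomal percent as covariate. The fit was tested on simulated data with unbounded normal noise and without batches or long blocks, so that test does not cover these features. All 11 clusters are described, and within a cluster the highest bin, the lowest bin and the largest step over both stages could be named. The members and lists were chosen with earlier results of these data known, and the limit of 30 Mb for long blocks, the batch test and the stage test of the flank contrast were added after the data were seen. Percents are bounded at 0 and 100, so the spread is unequal between clusters and, as at Plagl1, between stages. Positions of other imprinted genes were not used here, since the reference tables (RefSeq, GRCm38.p6) are of another build than the bins. RefSeq promoters were found for 16 of 20 gene names looked for. Figures were drawn with matplotlib 3.10.9, and other steps used pandas 2.3.3 and numpy 2.4.6 under Python 3.11.15.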

Additional observations from a re-analysis of the deposited data

Results flagged for a closer look

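In 3 of the groups of 9 or 10 embryos, 1 embryo stood far from the others, out of 44 groups examined, and chance alone marks about 1 in 20 groups. At Peg3, 4-cell embryo 14, which had a single mid-S cell, had a level against the autosomes of -0.664 points, where the nearest other embryo had 31.5. Also at Peg3, 4-cell embryo 9, again with a single mid-S cell, exceeded its flanks by 50 points, and the nearest other embryo by 16.3. At Peg10, 8-cell embryo 1, whose 7 mid-S cells all held long blocks, exceeded its flanks by 21.6 points, and the nearest other embryo by 41.7.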

How the results depend on the processing

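The number of clusters that passed was within 1.5 times the reported one under all alternatives but those named here. Clusters that differ from their flanks at the 4-cell stage numbered 4, against 2 with cells of score 40 to 60 and 0 in the later batch alone. With each embryo left out in turn, the counts were 7 to 9 (reported: 7) and 7 to 8 (reported: 8) against the genome at the 4-cell and 8-cell stage, 0 to 0 between the stages, and 3 to 6 (reported: 4) and 6 to 7 (reported: 7) against the flanks. Between the stages 0 clusters passed in limma under any of 13 alternatives, with 1 to 3 at an unadjusted p under 0.05. The values of single clusters kept their direction in 757 of 781 cases, and none of the 24 turned values had passed in the reported fit except Igf2r against its 4-cell flanks.

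Turned values in percentage points follow by setting, and the cause was not tested. Against the genome, Dlk1-Dio3 at the 4-cell stage was -7.62 without cells that hold long blocks and from -1.78 (without embryo 3) to 8.97 (without embryo 11) with each embryo left out. In the later batch alone the 4-cell levels were 0.502 at Grb10 and -12 at Plagl1. At the 8-cell stage Grb10 was -8.45 against its own chromosome and Rasgrf1 -0.939 with bins wholly inside the interval. Between the stages, cells of score 40 to 60 gave 11.7 at H19 to Kcnq1, 4.67 at Ube3a to Ndn and -21.2 at Gnas. The later batch alone gave -1.67 at Gnas and 5.70 at Mest, and Ube3a to Ndn was 0.146 without cells that hold long blocks. Against the 4-cell flanks, the later batch alone gave -0.149 at Igf2r, -9.55 at Gnas and -1.56 at Plagl1. Gnas was also -0.645 with embryos of at least 2 mid-S cells, -1.74 without values inside long blocks and from -0.564 (without embryo 9) to 6.38 (without embryo 1) with each embryo left out. There Ube3a to Ndn was 1.93 without cells that hold long blocks, Grb10 was -2.43 with cells of score 40 to 60, and Plagl1 was -1.39 with flanks of 0.5 Mb. Against the 8-cell flanks, Mest was 11.3 with cells of score 40 to 60 and 1.58 on the arcsine scale (a transformed unit), and Rasgrf1 was -0.536 with bins wholly inside the interval.

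Over all 2392 regions, 1 was earlier and 10 were later at the 8-cell stage. These counts were 0 and 0 with cells of score 40 to 60, 5 and 15 with cells of score 20 to 80, 2 and 20 in the later batch alone, 0 and 19 with no covariate, and 24 and 36 without cells that hold long blocks. They were 28 and 45 with cells as values and the embryo as a random block, 6 and 20 with windows of 0.5 Mb, and 1 and 17 without values inside long blocks. No paired analysis was possible because replicate numbers were given in accession order and pair no embryos. With 9 and 10 embryos, 3 to 8 bins in most clusters and unknown read depth, differences between the stages within the intervals given in the report can pass unseen.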
